A study of Saccharomyces cerevisiae with 6 samples.

Results

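VAC8 (YEL013W) encodes an armadillo-repeat protein on the cytosolic face of the yeast vacuole, the organelle that stores and degrades like the lysosome of animal cells. It is 1 of the 10 genes described here, chosen by name from the 6442 genes listed: VAC8 itself, the genes of its direct partners or motor (VAC17, MYO2, NVJ1, ATG13), the genes that make and regulate the vacuolar lipid PI(3,5)P2 (FAB1, VAC7, VAC14, FIG4), and YPT7, which acts in vacuole fusion. All 10 were in the deposited tables and passed the filter on low counts, VAC8 through the H0 libraries alone. They were chosen by name and not by a limit on their values, but with earlier results of these data known. VAC8 is the gene that the tested strain lacks.

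RNA was sequenced from S3 and H0, labelled as Saccharomyces cerevisiae with synV, the synthetic chromosome V that carries recombination sites for SCRaMbLE, an induced rearrangement of the genome by Cre recombinase. H0 was taken as yJBH000, the haploid synV strain with the carotenoid pathway (crtE, crtI, crtYB) and a LEU2 marker at CAN1, and S3 as yJBH012, 1 SCRaMbLEd clone derived from it that lacks the segment YEL014C to YEL013W, because the study describes the transcriptomes of no other strains. Both strains therefore share the synthetic chromosome and the carotenoid pathway, and the labels give the same rearranged genotype for both. Each group had 3 libraries from flask cultures of 12 h in YPD medium at 250 rpm and 30 °C. Nothing in the labels says that the 3 were grown apart, so p-values measure the spread between these libraries, which may be technical. Any other difference between the clone and its parent cannot be told apart from the loss of VAC8.

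In budding yeast Vac8 works as an adaptor with several separate jobs. With Vac17 it links the vacuole to Myo2, the type V myosin that pulls the vacuole along actin cables into the bud; with Nvj1 of the nuclear envelope it zips nucleus and vacuole together at the nucleus-vacuole junction; and with Atg13 it takes part in the cytoplasm-to-vacuole targeting (Cvt) pathway and autophagy. Fab1 is the lipid kinase that makes PI(3,5)P2, Vac7 activates it, Vac14 is the scaffold of its complex and Fig4 is the phosphatase that removes the same phosphate, and loss of this lipid gives swollen vacuoles. Ypt7 is the Rab GTPase of the vacuole, needed for vacuoles to fuse with each other.

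The sequence that anchors Vac8 is shown first, because it lies in the segment that S3 has lost. Vac8 is held on the membrane by lipids on its N terminus, among them palmitate on cysteines. The first 9 codons of VAC8 in the R64 reference (chrV:128825-128851, plus strand), with the 3 cysteine codons in capitals, read as follows.
VAC8 codons: atgggttcaTGTTGTagtTGCttgaaa

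VAC8 lies on chromosome V from 128825 to 130561 on the plus strand, as 1 exon with no overlapping annotated gene. Its neighbour YEL014C, a short open reading frame at 128303 to 128608 on the minus strand, points away from it across a gap of 216 bases. These positions and all those below are those of R64, the assembly whose exon lengths match the lengths behind the deposited values. The strains carry a synthetic chromosome V whose own letters were not used here and may differ.

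Windows from 250 bases before to 50 bases after the start codon are given for 3 genes on which the comparison turns: VAC8, which was lost, FAB1, which changed most among the others, and VAC17, the adaptor that Vac8 binds. Capitals mark matches, on either strand, to 6 short motifs: CCCCT (the stress response element), ACGCGT (the MCB element), CNCGAAA (the SCB element), TGACTC (Gcn4), CACGTG (Pho4 and Cbf1) and GCCGCC (the core of URS1). Here TGACTC stands in the VAC8 and FAB1 windows, CCCCT in that of FAB1, CNCGAAA in those of VAC17 and FAB1, and GCCGCC in that of VAC17.
VAC8, chrV:128575-128874, plus strand: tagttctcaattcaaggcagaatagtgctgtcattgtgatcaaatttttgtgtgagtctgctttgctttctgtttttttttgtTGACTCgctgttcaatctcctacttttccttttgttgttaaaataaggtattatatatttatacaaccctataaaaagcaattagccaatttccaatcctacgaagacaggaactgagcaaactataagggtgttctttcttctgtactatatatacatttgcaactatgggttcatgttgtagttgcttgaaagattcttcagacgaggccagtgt
FAB1, chrVI:184252-184551, plus strand: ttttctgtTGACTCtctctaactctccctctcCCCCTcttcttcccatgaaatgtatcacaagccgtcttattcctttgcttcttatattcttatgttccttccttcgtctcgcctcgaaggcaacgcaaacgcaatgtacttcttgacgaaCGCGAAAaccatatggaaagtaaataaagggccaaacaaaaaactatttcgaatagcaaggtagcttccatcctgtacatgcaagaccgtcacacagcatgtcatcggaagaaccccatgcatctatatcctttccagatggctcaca
VAC17, chrIII:17040-17339, plus strand: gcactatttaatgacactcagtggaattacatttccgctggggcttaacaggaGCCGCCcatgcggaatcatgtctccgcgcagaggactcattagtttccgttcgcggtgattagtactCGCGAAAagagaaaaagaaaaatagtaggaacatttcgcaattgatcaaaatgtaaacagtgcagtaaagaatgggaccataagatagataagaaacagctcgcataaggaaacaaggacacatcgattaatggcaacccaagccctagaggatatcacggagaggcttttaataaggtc

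TGACTC began 167 bases before the start codon of VAC8 and 242 bases before that of FAB1. FAB1 also held CCCCT at 218 bases and CGCGAAA at 98 bases before its start, and VAC17 held GCCGCC at 197 and CGCGAAA at 130 bases. No match overlapped that of another motif. Over the 10 genes, CCCCT was found in 5 windows (NVJ1, VAC7, VAC14, FAB1, YPT7) against 21.6% of 6001 windows of the same length genome-wide, CNCGAAA in 3 (VAC17, VAC14, FAB1) against 13.8%, and TGACTC in 5 (VAC8, NVJ1, ATG13, FAB1, YPT7) against 7.98%, of which VAC8 and FAB1 alone held it wholly before the start codon. The genome-wide share of windows with TGACTC wholly before the start codon was not computed. GCCGCC was found in 1 window (VAC17), against 5.13%, while ACGCGT and CACGTG, in 3.07% and 2.92% of all windows, were found in none. These are matches of letters, not binding sites.

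The libraries held 17675299 to 21568860 counts in S3 and 23340054 to 25333938 in H0, so depth moved with the strain, and its part in the results was not tested. All values are shares of a library, so a lower share and less RNA per cell cannot be told apart. Within a strain the log2 values of 2 libraries correlated at 0.987 to 0.995, with replicate 1 of H0 in both lowest pairs. The strains differed widely. Of 5904 genes tested with edgeR (quasi-likelihood F test, Benjamini-Hochberg), 4160 (70.5%) had an adjusted p under 0.05, 2022 of them higher in S3 (34.2%) and 2138 lower (36.2%). With libraries scaled by their total counts in place of TMM factors, 1144 genes were higher and 3401 lower, and the median log2 fold change over the 5904 genes was −0.35 in place of −0.01. A scaling shift of this size is larger than the change of several genes described here. The 7 a-specific mating genes, marks of MATa haploids, summed to 1903 to 2128 CPM (counts scaled to a common library size, with TMM factors) in S3 and 1674 to 1742 in H0, while the 4 alpha-specific genes summed to 61.9 to 71.1 CPM in S3 and 74.0 to 75.0 in H0. None of these 11 genes was at 0 in any library. The larger a-specific sum in S3 came from the pheromone genes MFA1 and MFA2, higher by 1.01 and 0.98 on the log2 scale. These genes are short, at 111 and 117 bases, and MFA1 was as low as 0.23 among the other settings. AGA2 (−0.58), BAR1 (−0.53) and STE6 (−0.33) were lower and STE2 and ASG7 were not called, for a list median of −0.11. Of the alpha-specific genes SAG1 alone was called (−0.24), and the others lay between −0.24 for MF(ALPHA)2 and 0.27 for STE3.

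VAC8 was all but undetected in S3. It had 0, 0 and 1 counts in the 3 S3 libraries, against 2532, 2473 and 2216 counts in the H0 libraries, where it stood at 88.6 ± 4.05 CPM (SD, n = 3). The 7221 counts of H0 against 1 count of S3 give a depth-adjusted ratio of 4580, with an exact 95% interval of 821.7 to 180900 that covers counting error only. YEL014C, on the same lost segment, had 0 counts in every S3 library and 84, 83 and 82 counts in H0, a level of 3.06 CPM, so that S3 was at least 16-fold lower when 3 counts in the smallest S3 library are taken as the limit. Of 5762 genes with at least 20 counts in every H0 library, these 2 alone were at 3 counts or fewer in every S3 library.

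The genes next to the lost segment were still transcribed. EDC3, an enhancer of mRNA decapping whose end lies on the left side of the segment, had 202, 185 and 189 CPM in S3 against 124, 131 and 130 CPM in H0, a log2 fold change of 0.58 (SE 0.056, adjusted p = 6.96e-05). UBC8, a ubiquitin-conjugating enzyme on the right side, had 125, 110 and 119 CPM in S3 against 110, 77.5 and 80.8 CPM in H0. Its log2 fold change of 0.40 (SE 0.13, adjusted p = 0.0275) was 0.06 with total-count scaling, where it was not called (adjusted p = 0.684). NPP2, a nucleotide pyrophosphatase beyond EDC3, had 63.8, 68.8 and 63.9 CPM in S3 against 70.8, 73.6 and 72.9 CPM in H0, a log2 fold change of −0.14 (adjusted p = 0.0403). Both calls were lost without replicate 1 or 3 of S3 or replicate 2 or 3 of H0, with adjusted p from 0.0784 to 0.0904 for UBC8 and from 0.0946 to 0.142 for NPP2. That of NPP2 was also lost with a replicate block, DESeq2's size factors, its Wald test or at least 10 counts in every library (adjusted p from 0.0529 to 0.0903).

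The loss of VAC8 was fixed by the deletion, so the counts are given for the other 9 genes. Of these, 7 were called, 2 higher (MYO2 and NVJ1) and 5 lower (FAB1, VAC17, YPT7, ATG13 and VAC7), while VAC14 and FIG4 were not, against 70.5% of all genes called. In CPM, the 3 S3 libraries lay outside the range of the 3 H0 libraries for 7 of the 9, where 75.5% of all genes had such separate ranges. None of the 9 had a called difference of more than 2-fold in this test of 3 libraries per strain, against 15.7% of all genes. FAB1, nearest to that limit with a log2 fold change of −0.93, was called beyond it under other settings. It was −1.26 with total-count scaling, −1.18 and −1.26 on log2 FPKM, and −1.09 with the length trend removed. Their median log2 fold change was −0.27, against −0.01 over all genes. With total-count scaling MYO2 was higher, 7 were lower and NVJ1 was not called.

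**Figure D1:**
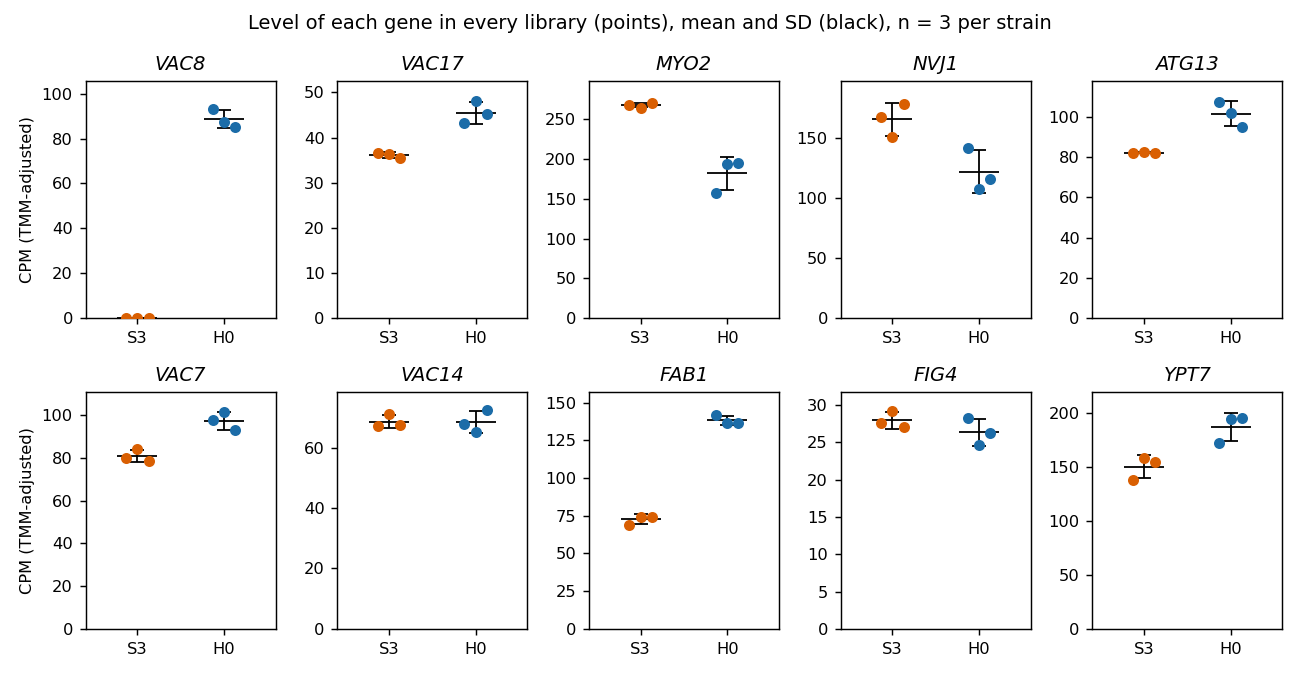
CPM (TMM-adjusted) of the 10 genes in each library, with S3 on the left and H0 on the right of each panel; points are libraries, the long black line is the mean and the bars are 1 SD (n = 3 per strain). VAC8 lay at 0 to 0.0639 CPM in S3 against 85.3 to 93.1 CPM in H0, FAB1 at 68.8 to 74.5 against 136 to 142 CPM, and VAC14 and FIG4 overlapped.

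The genes of vacuole inheritance moved apart. MYO2 (chromosome XV, 925721 to 930445, plus strand), the myosin motor that Vac8 and Vac17 attach to the vacuole, had 268, 264 and 270 CPM in S3 against 157, 193 and 195 CPM in H0. The S3 libraries lay close together and all above H0, whose replicate 1 was lowest. MYO2 rose 1.47-fold, a log2 fold change of 0.56 (SE 0.087, 95% interval 0.35 to 0.76, adjusted p = 8.42e-04), and it stayed higher at 0.22 with total-count scaling. MYO2 shares 69.4% identity over 2451 bases with MYO4, another class V myosin gene, and 70.7% over 157 bases with MYO1, so reads placed on more than 1 gene could bear on its count, whereas no other gene of the 10 had such a relative. VAC17 (chromosome III, 17290 to 18561, plus strand), the adaptor between Vac8 and Myo2, had 36.7, 36.4 and 35.4 CPM in S3 against 43.2, 48.0 and 45.1 CPM in H0. All S3 libraries lay below all H0 libraries, and VAC17 fell by 0.33 on the log2 scale (SE 0.060, adjusted p = 0.00178).

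The ratio of VAC17 to MYO2 within a library does not depend on how libraries are scaled. Taken from FPKM (counts scaled by gene length and library total), it was 0.509, 0.511 and 0.488 in S3 against 1.02, 0.923 and 0.862 in H0. The adaptor's transcript was thus about level with that of the motor in H0 and about 0.503 ± 0.013 of it in S3 (SD, n = 3), a log2 difference of −0.89. The ranges did not overlap, and the exact two-sided permutation test gave p = 0.1, the smallest value that 3 against 3 libraries allow (adjusted p = 0.12 over 6 ratios).

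Around this pair, 12 genes of vacuole inheritance and Myo2 cargo transport were examined, and 3 rose, 7 fell and 2 were not called, with a median log2 fold change of −0.24. Over all genes 34.2% rose and 36.2% fell. Without VAC17 and MYO2 the counts were 2, 6 and 2, and with total-count scaling 2 of the 12 were higher and 9 lower. The number lower was 6 with DESeq2's size factors or its Wald test, a replicate block, or at least 10 counts in every library. It was also 6 without replicate 1 or 3 of S3 or replicate 2 or 3 of H0. DMA1, a ubiquitin ligase that acts in the release of the vacuole from Myo2 through Vac17, had 82.4, 84.6 and 82.9 CPM in S3 against 47.1, 43.4 and 41.2 CPM in H0, the largest rise of the list at 0.92 (SE 0.062, adjusted p = 1.51e-05). CLA4, a kinase of bud formation that phosphorylates Vac17, had 66.6, 67.6 and 69.2 CPM in S3 against 124, 134 and 132 CPM in H0, the largest fall at −0.94 (SE 0.051, adjusted p = 7.18e-06). The genes for other cargo of Myo2 differed among themselves. INP2, the peroxisome receptor, fell by 0.81 on the log2 scale, MMR1, which links mitochondria, by 0.71 and SEC4, of secretory vesicles, by 0.30. KAR9, of the spindle, fell by 0.17, with an adjusted p of 0.0416 near the limit. YPT11, a Rab GTPase of mitochondrial transport, was not called at −0.02 (called lower at −0.35 with total-count scaling). MLC1, a light chain of Myo2, fell by 0.74.

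NVJ1 (chromosome VIII, 490747 to 491712, plus strand), which binds Vac8 across the nucleus-vacuole junction, had 167, 151 and 178 CPM in S3 against 142, 108 and 116 CPM in H0. All 3 S3 libraries were above all H0 libraries in CPM, but the gap between the lowest of S3 and the highest of H0 was small. NVJ1 rose by this scaling, with a log2 fold change of 0.44 (SE 0.11, 95% interval 0.18 to 0.70, adjusted p = 0.00937). With total-count scaling the value was 0.10 (adjusted p = 0.443), and in FPKM the strains overlapped, at 154, 140 and 163 in S3 against 168, 125 and 134 in H0, so the rise is relative to the other genes.

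Of 10 genes of the junction, 4 rose, 1 fell and 5 were not called, with a median log2 fold change of 0.02, against 34.2% of all genes higher and 36.2% lower. MDM1, a tether of the junction, had 47.7, 51.9 and 46.9 CPM in S3 against 24.7, 25.6 and 26.3 CPM in H0, a rise of 0.94 (SE 0.064, adjusted p = 1.61e-05) that stayed at 0.55 or more under the 17 other settings. NVJ2 rose by 0.85 and HMG1, an HMG-CoA reductase of the sterol pathway, by 0.66. SWH1, an oxysterol-binding protein that Nvj1 draws to the junction, had 228, 209 and 230 CPM in S3 against 346, 330 and 321 CPM in H0 and fell by 0.58 (SE 0.063, adjusted p = 1.25e-04). With total-count scaling 3 of the 10 were higher and 5 lower.

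ATG13 (chromosome XVI, 907218 to 909434, plus strand), a regulatory subunit of the Atg1 kinase that binds Vac8, had 82.1, 82.4 and 81.9 CPM in S3 against 107, 102 and 94.99 CPM in H0. It varied least among the S3 libraries of all 10 genes, and it fell by 0.31 on the log2 scale (SE 0.058, adjusted p = 0.00226). Of the 9 genes of the Atg1 complex and the Cvt cargo, none rose by the test across 3 libraries per strain, 6 fell and 3 were not called (AMS1, ATG17 and ATG29), with a median log2 fold change of −0.37, against 34.2% of all genes higher and 36.2% lower. The number that fell was 5 without any 1 S3 library, and 8 with total-count scaling, upper-quartile factors, the length trend removed or H0 replicate 3 left out. With total-count scaling AMS1 (−0.71, adjusted p = 0.00391) and ATG17 (−0.62, adjusted p = 0.00201) were called lower. APE1 and ATG19, the cargo and its receptor, fell most. APE1, the aminopeptidase that the Cvt pathway carries into the vacuole, had 152, 154 and 174 CPM in S3 against 751, 525 and 486 CPM in H0, a log2 fold change of −1.87 (SE 0.17, adjusted p = 4.93e-05). ATG19 had 103, 110 and 113 CPM in S3 against 314, 243 and 225 CPM in H0, a fold change of −1.26 on the log2 scale (SE 0.12, adjusted p = 7.88e-05). ATG31, a subunit of the autophagy scaffold, had 18.5, 16.5 and 20.01 CPM in S3 against 41.4, 37.0 and 37.2 CPM in H0, a log2 fold change of −1.08 (SE 0.091, adjusted p = 3.90e-05).

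H0 replicate 1 stood highest for APE1, ATG19 and ATG31, and without each library in turn APE1 ranged from −1.99 to −1.66. ATG1, the kinase itself, had 37.1, 32.9 and 34.3 CPM in S3 against 54.1, 40.2 and 40.4 CPM in H0, a log2 fold change of −0.37 (adjusted p = 0.0312) that was lost without any 1 of the S3 libraries (adjusted p = 0.0571, 0.118 and 0.101). ATG29 had 16.96, 17.2 and 18.7 CPM in S3 against 23.3, 13.7 and 13.6 CPM in H0 and was not called, while without H0 replicate 1 its log2 fold change of 0.06 became 0.36 (adjusted p = 0.00475). The ratio of ATG13 to ATG1 within a library was 2.69, 3.04 and 2.90 in S3 against 2.41, 3.09 and 2.86 in H0, with overlapping ranges and an exact permutation p = 0.7 (adjusted p = 0.7).

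Direct partners or modifiers of Vac8 formed a list of 6 genes (VAC17, NVJ1, ATG13, ATG11, PFA3 and TCO89). Of these, 1 rose, 4 fell and 1 was not called, with a median log2 fold change of −0.28. Over all genes 34.2% rose and 36.2% fell, and with total-count scaling 0 of the 6 were higher and 5 lower. Among the 6, VAC17, NVJ1 and ATG13 are also among the 10 genes, and these 3 and ATG11 were already counted in the lists above. ATG11, an adaptor of selective autophagy, had 45.1, 43.3 and 42.4 CPM in S3 against 62.1, 61.3 and 62.7 CPM in H0 and fell by 0.51 (SE 0.049, adjusted p = 6.76e-05). PFA3, the palmitoyltransferase that acts on the cysteines whose codons are printed above, fell by 0.25 (SE 0.058, adjusted p = 0.0061), with 31.9, 33.1 and 31.1 CPM in S3 against 39.4, 37.8 and 37.0 CPM in H0. TCO89, a TORC1 subunit, was not called at −0.06 and had overlapping ranges, though it was called lower with total-count scaling (−0.40, adjusted p = 3.11e-04).

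FAB1 (chromosome VI, 184502 to 191338, plus strand), the PI(3)P 5-kinase, had 68.8, 74.4 and 74.5 CPM in S3 against 142, 136 and 137 CPM in H0. The strains were far apart relative to the spread within each, and FAB1 stood at 0.525 of its H0 level, a log2 fold change of −0.93 (SE 0.053, 95% interval −1.06 to −0.80, adjusted p = 8.40e-06). Of all tested genes, 6.27% had a lower log2 fold change than FAB1, and under the 17 other settings its value stayed between −1.26 and −0.89. At 6837 bases FAB1 is longer than 99.7% of the tested genes, whose median is 1197 bases. With the trend of fold change with gene length removed its value was −1.09 and still called. Few genes of such length carry that trend, and a part of gene length in the fall was not tested.

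**Figure D2:**
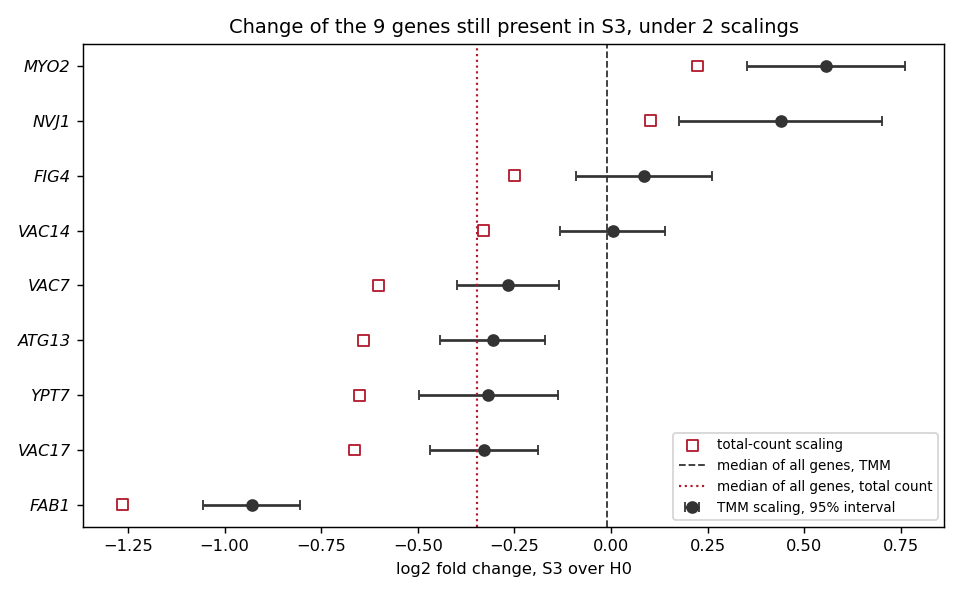
Log2 fold change (S3 over H0) of the 9 genes other than VAC8; circles with 95% intervals are from TMM scaling and open squares from total-count scaling, and vertical lines mark the median of all genes under each (−0.01 and −0.35). FAB1 lay farthest to the left at −0.93 and MYO2 farthest to the right at 0.56, and the squares of VAC14 and FIG4 lay below 0.

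The regulators of Fab1 changed less than the kinase. VAC7 (chromosome XIV, 526086 to 529583, plus strand), its activator, had 79.8, 84.2 and 78.5 CPM in S3 against 97.9, 101 and 92.9 CPM in H0 and fell by 0.27 (SE 0.056, adjusted p = 0.00366). VAC14 (chromosome XII, 893628 to 896270, plus strand), the scaffold, had 67.2, 71.1 and 67.5 CPM in S3 against 67.8, 65.1 and 72.3 CPM in H0, a log2 fold change of 0.00 (SE 0.058, 95% interval −0.13 to 0.14, adjusted p = 0.953). FIG4 (chromosome XIV, 28739 to 31378, minus strand), the phosphatase, had 27.6, 29.2 and 27.05 CPM in S3 against 28.2, 24.7 and 26.2 CPM in H0, a log2 fold change of 0.09 (SE 0.075, 95% interval −0.09 to 0.26, adjusted p = 0.333). The strains overlapped in CPM for VAC14 and FIG4. In FPKM they did not, at 22.6 to 24.1 in S3 against 27.5 to 30.4 in H0 for VAC14. FIG4 lay at 9.07 to 9.92 FPKM in S3 against 10.4 to 12.2 in H0. With total-count scaling both were called lower, at −0.33 (adjusted p = 0.00137) and −0.25 (adjusted p = 0.0236), near the median of all genes on that scale.

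Relative to FAB1 in the same library, all 3 regulators were more abundant in S3. FPKM of VAC7 over FAB1 was 2.27, 2.21 and 2.06 in S3 against 1.35, 1.45 and 1.33 in H0, and that of VAC14 over FAB1 was 2.53, 2.47 and 2.34 in S3 against 1.24, 1.24 and 1.37 in H0. FIG4 over FAB1 was 1.04, 1.02 and 0.940 in S3 against 0.515, 0.469 and 0.497 in H0, a log2 difference of 1.02. Thus the transcripts of phosphatase and kinase were about level per length in S3, while that of the kinase was the more abundant in H0. None of the 3 ratios overlapped between strains, and each gave the smallest possible exact permutation p of 0.1 (adjusted p = 0.12). The 3 ratios share FAB1 and are not separate results.

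**Figure D3:**
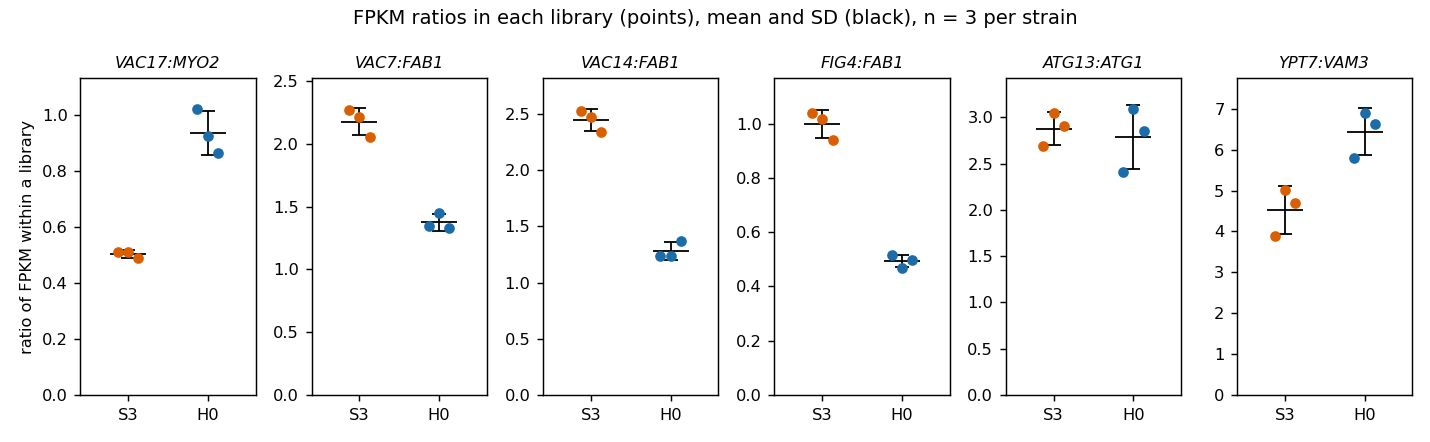
Ratio of FPKM of 2 genes within each library, S3 left and H0 right in each panel; points are libraries, with the mean and 1 SD in black (n = 3 per strain). VAC17 over MYO2 lay at 0.488 to 0.511 in S3 against 0.862 to 1.02 in H0, the ratios over FAB1 lay higher in S3, and ATG13 over ATG1 overlapped.

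Of 8 genes of PI(3,5)P2 and vacuole size, none rose by the test across 3 libraries per strain, 6 fell and 2 were not called, with a median log2 fold change of −0.30, against 34.2% of all genes higher and 36.2% lower. With total-count scaling all 8 were called lower. The 4 genes other than FAB1, VAC7, VAC14 and FIG4 all fell under TMM factors. ATG18, a PI(3,5)P2-binding protein that restrains Fab1, had 59.9, 58.5 and 57.7 CPM in S3 against 94.4, 91.6 and 87.0 CPM in H0, a log2 fold change of −0.63 (SE 0.052, adjusted p = 3.63e-05). VPS34, the kinase that makes the lipid substrate of Fab1, fell by 0.34 (adjusted p = 0.00752) and VPS15, its partner, by 0.47 (adjusted p = 2.14e-04). YVC1, the vacuolar cation channel that this lipid opens, fell by 0.18 (SE 0.048, adjusted p = 0.012).

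YPT7 (chromosome XIII, 267174 to 267800, plus strand) had 138, 158 and 154 CPM in S3 against 172, 194 and 195 CPM in H0. S3 was below H0 in every library, with replicate 1 the lowest of each strain, and YPT7 fell by 0.32 (SE 0.077, 95% interval −0.50 to −0.14, adjusted p = 0.00723). Set against VAM3, a vacuolar SNARE, YPT7 had FPKM ratios of 3.88, 5.003 and 4.71 in S3 against 5.80, 6.89 and 6.63 in H0, a log2 difference of −0.51 with p = 0.1 by the exact permutation test (adjusted p = 0.12). VAM3 alone had 48.3, 42.9 and 44.5 CPM in S3 against 40.3, 38.2 and 40.0 CPM in H0, a log2 fold change of 0.20 (adjusted p = 0.025) that was −0.14 with total-count scaling, where it was not called (adjusted p = 0.082). Its call was also lost with upper-quartile factors (adjusted p = 0.0576) and without replicate 1 of S3, 2 of H0 or 3 of H0 (adjusted p = 0.0831, 0.0916 and 0.055).

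Of 18 genes of vacuole fusion, 5 rose, 8 fell and 5 were not called, with a median log2 fold change of −0.10, against 34.2% of all genes higher and 36.2% lower. With total-count scaling 2 were higher and 12 lower, and with each library left out in turn 4 to 6 were higher and 7 to 8 lower. NYV1, the R-SNARE of the vacuole, had 176, 178 and 176 CPM in S3 against 106, 95.5 and 102 CPM in H0, the largest rise at 0.80 (SE 0.055, adjusted p = 1.68e-05). The tethering complex HOPS, to which Ypt7 binds, split: PEP5 (Vps11) rose by 0.60 and PEP3 (Vps18) by 0.28, which was −0.05 and not called with total-count scaling, while VPS41 fell by 0.39, VPS33 by 0.23 and VPS16 by 0.21. VAM6 (Vps39) was not called, at 0.16 with TMM factors and −0.17 with total-count scaling. YCK3, the vacuolar casein kinase that phosphorylates Vps41, had 85.2, 89.4 and 86.8 CPM in S3 against 118, 123 and 123 CPM in H0, the largest fall at −0.48 (SE 0.047, adjusted p = 8.19e-05).

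**Figure D4:**
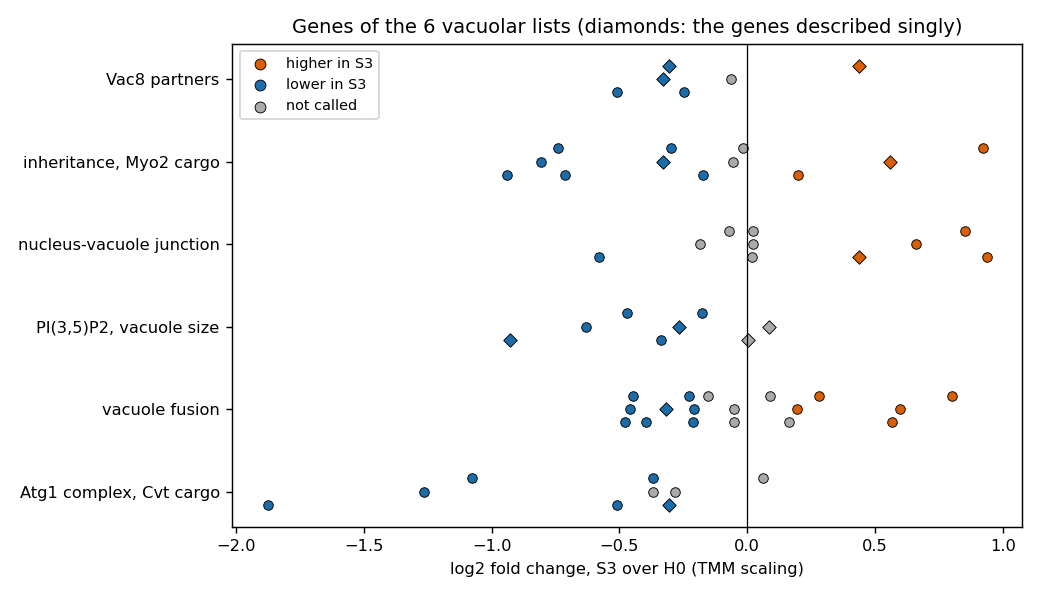
Log2 fold change (S3 over H0, TMM scaling) of the genes in 6 vacuolar lists, with 1 point per gene, diamonds for the named genes, orange for called higher, blue for called lower and grey for not called. The lists of PI(3,5)P2 and of the Atg1 complex held no gene called higher, APE1 lay farthest to the left at −1.87, and a gene in several lists is drawn in each.

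Ordered by FPKM, a level per gene length, YPT7 was highest in both strains, at 213.1 ± 15.6 in S3 and 334.6 ± 19.5 in H0 (SD, n = 3), followed by NVJ1 at 152.7 ± 11.6 in S3 and 142.2 ± 22.6 in H0. In S3 the order went on with MYO2 (50.4), ATG13 (33.0), VAC17 (25.3), VAC14 (23.1), VAC7 (20.6), FAB1 (9.45) and FIG4 (9.43), and FAB1 and FIG4 were the one neighbouring pair whose ranges overlapped. In H0 VAC8 came next at 57.3 ± 3.33 FPKM, before ATG13 (51.5), MYO2 (43.1), VAC17 (40.1), VAC7 (31.2), VAC14 (29.1), FAB1 (22.7) and FIG4 (11.2). There the ranges of VAC8 and ATG13, of MYO2 and VAC17, and of VAC7 and VAC14 overlapped. VAC8 was thus among the 3 highest of these genes in H0.

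Likeness of pattern was measured as the root-mean-square distance of mean-centred log2 CPM over the 6 libraries, with no test. Nearest to VAC8 were YEL014C at 2.29, YPR078C at 2.72 and DLD3 at 2.94, so that no tested gene lay closer than 2.29. These 3 distances depend on the prior count of 2 added to counts near 0. Each other gene had a near neighbour among the 5904: MEX67 for VAC17 at 0.012, CIS3 for MYO2 at 0.0256, PEX29 for NVJ1 at 0.0358, YRM1 for ATG13 at 0.0226, SYT1 for VAC7 at 0.0245, REV3 for VAC14 at 0.0144, MET5 for FAB1 at 0.0246, SLY41 for FIG4 at 0.0264 and SOL3 for YPT7 at 0.0255.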

How the data were processed

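Per the submitters' processing notes, HTSeq 0.6.1 and DESeq 1.18.0 were used, and the aligner, genome build and use of strand are not given in the sources used here. The authors deposited unnormalized read counts per gene and FPKM values, whose implied gene lengths equalled R64 exon lengths for 99.9% of genes. Of 6442 identifiers, 6436 matched R64. Strains were compared (S3 minus H0) in R 4.3.3 by edgeR 4.0.16, using TMM scaling, filterByExpr, glmQLFit and glmQLFTest, with Benjamini-Hochberg adjusted p-values over the 5904 genes kept, and genes were called at an adjusted p under 0.05. Standard errors come from that model. The analysis was run on simulated data with 200 of 5892 genes changed 1.5-fold, of which 92% were recovered with 8 false calls. The simulation gave every gene the same spread and changed only genes above a limit on counts. It left out the greater distance of H0 replicate 1 from the other H0 libraries. Changes under 1.5-fold, and a difference as wide as that between these strains, were not simulated. Alternatives were other scalings, filters, DESeq2 1.42.0, limma 3.58.1 on counts and on log2 FPKM, a replicate block, a length correction (loess span 0.4) and each library left out. Sequences and motifs were read from R64 (RefSeq), and relatives were found with BLAST 2.17.0 (E value 1e-10, 100 aligned bases or more). Named beyond the 10 genes are list genes called beyond 2-fold, the highest and lowest of each list, the segment's neighbours, ratio partners and nearest genes, and others were chosen after their values were seen. The genes and lists were chosen with earlier results of these data known. The result of 1 further motif search is not reported here.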

Additional observations from a re-analysis of the deposited data

How the results depend on the processing

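Scaling was the choice that mattered most. With total-count scaling, limma on log2(FPKM + 1) and limma on log2(FPKM + 0.1), in that order, 1144, 1147 and 1143 genes were higher in S3 and 3401, 3383 and 3382 lower, against 2022 and 2138 with TMM factors. Beyond a log2 fold change of 1, 390, 368 and 393 genes were higher and 741, 677 and 730 lower, against 630 and 294. In the same 3 settings 1 of the 10 genes was called higher, no direct partner of Vac8 was (0 in each), 5 junction genes were lower and 2 fusion genes higher, and with the length trend removed 2 junction genes were lower. NVJ1 was then 0.10, 0.11 and 0.11 and not called, VAC14 was −0.33, −0.32 and −0.33, FIG4 −0.25, −0.23 and −0.25, and VAM3 −0.14 in each. The cause of these shifts beyond the scaling was not tested. Of 169 values of the 10 genes under the alternatives, 160 kept their call. The rest were those of VAC14 and FIG4, which turned from not called to called lower in 3 settings each, and of NVJ1, whose call was lost in 3. VAC14, near 0, also changed sign without being called, as at −0.05 with the length trend removed. With each library left out, 0 to 1 genes of the Atg1 list were called higher, and the log2 difference of ATG13 to ATG1 ran from −0.048 (without H0 replicate 1) to 0.13. VAC8 could not be fitted in the setting that needs 10 counts in every library. Same-numbered libraries were not treated as paired in the main test. Their deviations from the strain means correlated at −0.01 to 0.08, against −0.11 to 0.04 for other pairs. These values cannot decide whether the libraries were paired. A replicate block gave 3998 calls against 4160 and changed no call of the 10 genes. It ended the call of NPP2 (adjusted p = 0.0619), and 6 genes of the inheritance list were lower in place of 7.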
